A study of Mus musculus with 12 samples.

Results

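The 10 genes described here are immediate early genes: Fos, Fosb, Jun, Junb, Egr1, Egr3, Atf3, Ier2, Dusp1 and Btg2. They were taken by symbol from a table of raw read counts over 47747 gene symbols, and all 10 had enough reads to be tested among the 18593 genes that passed a filter on low counts. The table holds RNA-seq of the meninges, the connective tissue membranes around the brain, from 12 C57bl/6 mice, 1 library per mouse. Dextran sulfate sodium (DSS), a polysaccharide that injures the colonic epithelium and causes colitis, was given to 6 mice at 2% in drinking water for 5 days, followed by normal water, and the other 6 mice were controls. The mice were culled after 6 days. Age, sex and genotype other than the strain are not given in the labels, which also do not say what the control mice drank. Each library is total RNA of the whole membrane, so a lower level can stand for fewer cells of a type or for less RNA per cell, and these cannot be told apart.

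Immediate early genes are transcribed within minutes of a stimulus (growth factors, cytokines, stress or, in neurons, activity), without new protein synthesis. Kinase cascades activate factors already bound at their promoters, among them CREB, which binds the cyclic AMP response element, and the serum response factor with its partners. The transcripts are short lived, and the products form a second layer of control: Fos and Jun proteins pair as the transcription factor AP-1, EGR proteins are zinc finger transcription factors, and DUSP1 and BTG2 act in negative feedback and growth arrest.

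Because most of the 10 genes varied together between mice, as described below, the stretch just before the transcription start was examined for shared letters. The RefSeq promoter windows (GRCm38.p6) of 7 of the 10 genes were used. The 4 sequences shown are the 200 bases before the start of Fos (chr12:85473690-85473889, plus strand), of Dusp1 (chr17:26508473-26508672, minus strand), of Btg2 (chr1:134079156-134079355, minus strand) and of Jun (chr4:95052223-95052422, minus strand). Capitals mark TGACG, the core of the cyclic AMP response element, or its complement CGTCA. Fos, Dusp1 and Btg2 are shown as windows with the letters and Jun as one without them. Jun, without them, correlated with Btg2 across mice at r = 0.74, and Fos at r = 0.75. Btg2 was the gene with the highest r for Jun, but not for Fos. The median r over 9 pairs each was 0.604 for Jun and 0.745 for Fos. For the other genes whose windows held the letters, it ran from 0.627 (Fosb) to 0.738 (Btg2). Whether the letters have a part in these values was not tested.
Fos: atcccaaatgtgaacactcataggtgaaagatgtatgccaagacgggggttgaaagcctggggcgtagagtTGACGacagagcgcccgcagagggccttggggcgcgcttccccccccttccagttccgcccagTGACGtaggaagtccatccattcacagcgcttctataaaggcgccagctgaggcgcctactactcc
Dusp1: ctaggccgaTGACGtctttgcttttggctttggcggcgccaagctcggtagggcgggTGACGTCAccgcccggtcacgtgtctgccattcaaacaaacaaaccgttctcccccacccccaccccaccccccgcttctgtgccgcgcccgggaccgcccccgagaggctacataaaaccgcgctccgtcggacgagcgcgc
Btg2: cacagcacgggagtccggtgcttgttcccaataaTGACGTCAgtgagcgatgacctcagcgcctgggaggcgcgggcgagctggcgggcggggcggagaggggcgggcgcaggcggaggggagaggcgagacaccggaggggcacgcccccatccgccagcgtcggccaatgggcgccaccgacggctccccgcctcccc
Jun: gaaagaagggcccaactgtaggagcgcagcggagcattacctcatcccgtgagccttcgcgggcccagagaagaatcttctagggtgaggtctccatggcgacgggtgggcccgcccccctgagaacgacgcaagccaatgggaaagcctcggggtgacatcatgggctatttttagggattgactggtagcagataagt

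Over the 250 bases before the start, read on both strands, TGACG was found in 6 of the 7 windows, in Fos, Fosb, Junb, Atf3, Dusp1 and Btg2. The same letters were found in 17.8% of the 32851 RefSeq windows of that length. The full palindrome TGACGTCA, which contains the core, was found in 2 of the 7, in Dusp1 at 143 to 136 bases and in Btg2 at 166 to 159 bases before the start, against 1.55% of all windows. The AP-1 motif TGACTCA was found in 0 of the 7 (4.46% of all windows), and so was the CArG box, the motif of the serum response factor (1.47% of all windows). Only exact matches were counted, so near variants, such as tgacatca in the Jun window, were not. Letters farther than 250 bases before the start were not searched, nor were windows of Egr1, Egr3 and Ier2. A count of 0 of 7 therefore does not show that such sites are absent from these genes. These matches describe letters in a short window, and nothing follows from them about binding.

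Library totals ran from 9312788 to 41869997 counts. Ribosomal RNA took 59.8% of the counts of Control 2 and at most 9.23% of any other library, and mitochondrial genes took 18.6% in DSS 2 and at most 13.4% elsewhere. DSS 2 also had the highest summed level of 8 skeletal muscle markers (178 CPM, or counts-per-million, against 6.80 to 17.2 in controls). The source label of all samples reads colon, while their titles and the extraction protocol name meninges. Markers of fibroblasts, the main cells of these membranes, summed to between 10623 and 20879 CPM, and 6 markers of colon epithelium to between 3.96 and 11.9 CPM, with Cdx2 at 0 counts in every library. Of the fibroblast list, Col1a1 and Col1a2 alone averaged 5657 and 5890 CPM in controls. Osteoblast and bone markers summed to 817 to 1431 CPM in controls and 516 to 1537 CPM with DSS, so bone transcripts were present in both groups. Levels below are CPM with TMM scaling, a correction for library composition.

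None of the 10 immediate early genes differed between DSS and control meninges at an adjusted p under 0.05. With edgeR's quasi-likelihood test and Benjamini-Hochberg adjustment over all tested genes, 0 of 10 were called, while 919 of the 18593 genes were (4.94%), 684 of them higher with DSS (3.68%) and 235 lower (1.26%). DESeq2, limma-voom with quality weights and limma on the deposited normalized values also called 0 of 10. At an unadjusted p under 0.05, 2 of the 10 genes (Jun and Junb) passed, against 19% of all tested genes. The 6 DSS and 6 control mice did not separate for any of the 10; they separated for 3.05% of all genes, so 0 of 10 is near the overall share. The median log2 fold change was 0.09 over the 10 genes and -0.02 over all tested genes, with 6 of the 10 estimates above 0 and 4 below.

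**Figure D1:**
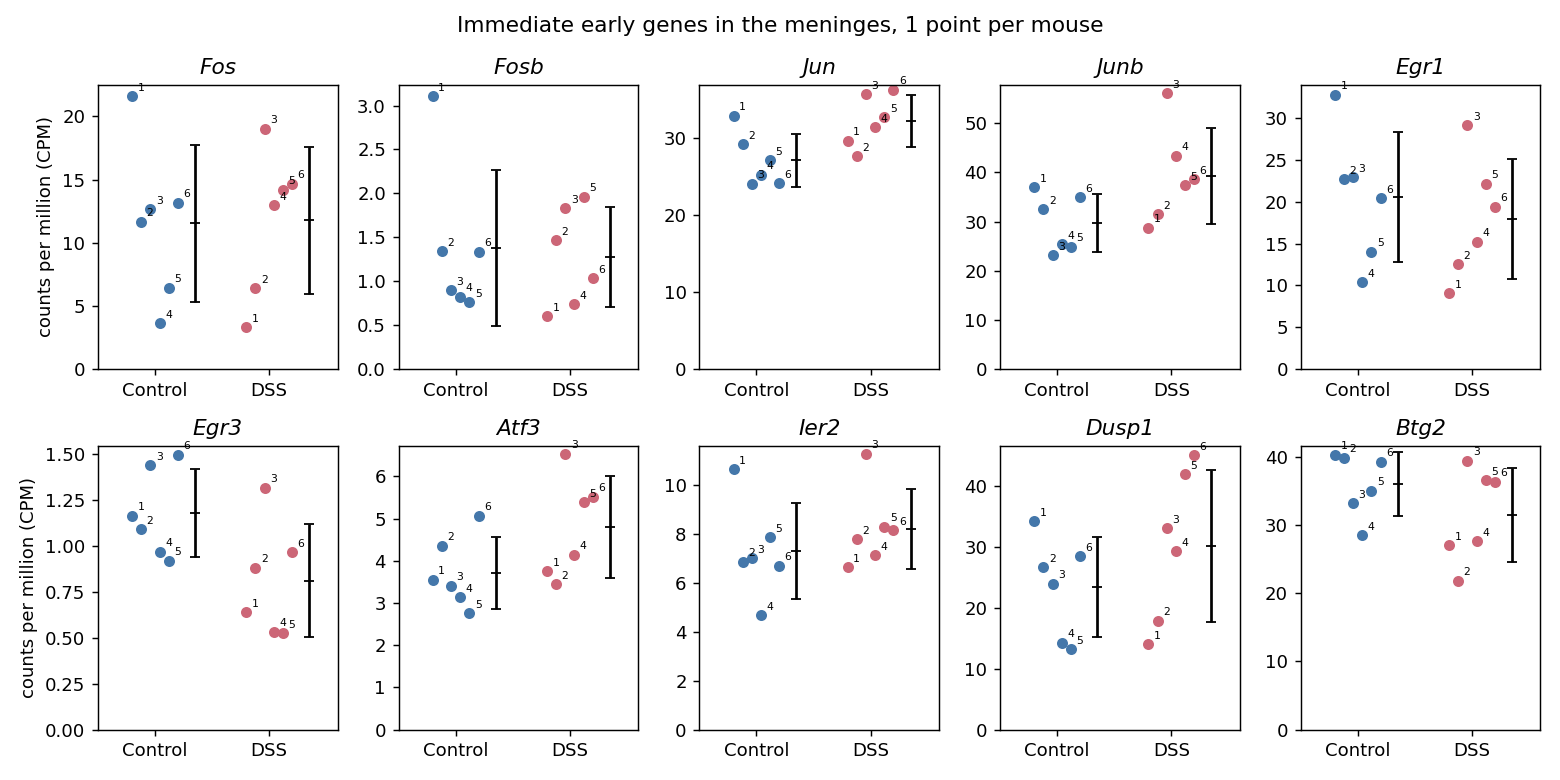
Level of each immediate early gene in CPM, counts-per-million (vertical axes start at 0 and differ between panels), 1 point per mouse with its replicate number, and bars for mean ± SD over the 6 mice of a group. Control and DSS points overlap in all 10 panels, and control mouse 1 and DSS mouse 3 are near the top of most.

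Fos and Fosb encode partners of Jun proteins in AP-1, and Fos is the classical marker of a recent stimulus. Fos (chr12:85473890-85477273, GRCm38) ran from 3.63 to 21.6 CPM in control mice, with a median of 12.2, and from 3.32 to 19.0 CPM in DSS mice, with a median of 13.6. The ranges lay almost on top of each other, with 2 low mice in each group: Control 4 (3.63 CPM) and Control 5 (6.44 CPM), DSS 1 (3.32 CPM) and DSS 2 (6.39 CPM). The group means were 11.5 ± 6.22 CPM and 11.8 ± 5.81 CPM (SD, n = 6 each), and the log2 fold change was 0.03 (SE 0.41, edgeR adjusted p = 0.987). Its 95% interval ran from -0.86 to 0.91, so that a change by as much as 1.88-fold upward lay within it. Its sign was not stable: the estimate was -0.16 without DSS 3, -0.15 without Control 4, -0.10 without Control 5, -0.04 without DSS 6, -0.03 without DSS 5 and 0.33 without Control 1. Fosb was scarce, at 0.760 to 3.10 CPM in controls (median 1.12) and 0.60 to 1.96 CPM with DSS (median 1.25). Its groups overlapped in part, with DSS 1 and DSS 4 below every control and Control 1 above every DSS mouse. The log2 fold change was -0.16 (SE 0.39, edgeR adjusted p = 0.884), and it ran from -0.34 without DSS 5 to 0.30 without Control 1. Gene counts do not separate full-length Fosb from its truncated splice form.

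Jun and Junb encode the partners of Fos proteins in AP-1. Jun (chr4:95049034-95052222) ran from 24.1 to 32.9 CPM in controls, with a median of 26.2, and from 27.6 to 36.3 CPM with DSS, with a median of 32.1. DSS mice lay toward the upper end, but only 2 of 6 exceeded the highest control. The log2 fold change was 0.25 (SE 0.09, 95% interval 0.05 to 0.45), with an unadjusted p of 0.0178 and an edgeR adjusted p of 0.149. Junb (chr8:84974484-84978718) ran from 23.1 to 37.0 CPM in controls, with a median of 28.9, and from 28.7 to 56.1 CPM with DSS, with a median of 38.0. Here 4 of 6 DSS mice were above every control, DSS 3 highest. Its log2 fold change was 0.40 (SE 0.16, 95% interval 0.06 to 0.75, edgeR adjusted p = 0.180). Neither gene passed the adjusted threshold when any single library was left out; the lowest adjusted p among these was 0.0520 for Jun and 0.105 for Junb, both by edgeR. A noncoding gene, Junos, overlaps Jun on the opposite strand and held counts equal to 1.89 to 5.87% of those of Jun; Prdx2 overlaps Junb in the same way, and the strand setting of the counting is not given in the sources used here.

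Atf3, a stress-induced factor of the ATF/CREB family that can pair with Jun proteins, ran from 2.76 to 5.07 CPM in controls (median 3.49) and from 3.45 to 6.54 CPM with DSS (median 4.77). The groups overlapped, and 3 of 6 DSS mice exceeded every control. Its log2 fold change was 0.37 (SE 0.19, edgeR adjusted p = 0.309), and its interval ran from -0.03 to 0.78.

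Egr1 and Egr3 encode zinc finger factors whose activity the NAB proteins restrain. Egr1 ran from 10.4 to 32.8 CPM in controls, with a median of 21.6, and from 9.07 to 29.2 CPM with DSS, with a median of 17.3. The groups covered the same span, and the log2 fold change was -0.19 (SE 0.29, edgeR adjusted p = 0.794); it was 0.0015 without Control 1 and -0.39 without DSS 3. Egr3 (chr14:70077203-70082614) ran from 0.92 to 1.5 CPM in controls, with a median of 1.13, and from 0.525 to 1.32 CPM with DSS, with a median of 0.760. For this gene 4 of 6 DSS mice were below the lowest control, the largest difference in size among the 10, at a log2 fold change of -0.54 (SE 0.26, 95% interval -1.09 to 0.01, edgeR adjusted p = 0.275). Neuronal markers were lower in the same direction: all 6 had negative estimates, 1 of them, Tubb3, fell (log2 fold change -0.69, SE 0.16, edgeR adjusted p = 0.0217), and their summed level was 106 to 174 CPM in controls and 85.0 to 123 CPM with DSS. Their part in the Egr3 values was not tested.

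Ier2, a short nuclear regulator of transcription, ran from 4.69 to 10.7 CPM in controls (median 6.94) and from 6.64 to 11.3 CPM with DSS (median 7.97). Only DSS 3 exceeded the highest control, and the log2 fold change was 0.16 (SE 0.18, edgeR adjusted p = 0.699). It was 0.05 without DSS 3, 0.07 without Control 4 and 0.31 without Control 1.

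Dusp1 and Btg2 are the feedback members. Dusp1 (chr17:26505590-26562128), a phosphatase that switches off the MAP kinases p38, JNK and ERK, ran from 13.3 to 34.2 CPM in controls, with a median of 25.4, and from 14.0 to 45.1 CPM with DSS, with a median of 31.2. The highest 2 values belonged to DSS 6 and DSS 5, while DSS 1 and DSS 2 lay among the lowest controls. Its log2 fold change was 0.37 (SE 0.29, 95% interval -0.26 to 1.00, edgeR adjusted p = 0.562); it was 0.22 without DSS 6 and 0.24 without Control 5. Other annotated genes overlap this span on both strands, and the RefSeq start used for the Dusp1 sequence above lies inside it. Btg2 (chr1:134075170-134079120), an antiproliferative cofactor of mRNA deadenylation and a p53 target, ran from 28.5 to 40.3 CPM in controls (median 37.1) and from 21.8 to 39.4 CPM with DSS (median 32.0). With 3 of 6 DSS mice below the lowest control, its log2 fold change was -0.19 (SE 0.14, edgeR adjusted p = 0.508), and -0.10 without DSS 2.

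**Figure D2:**
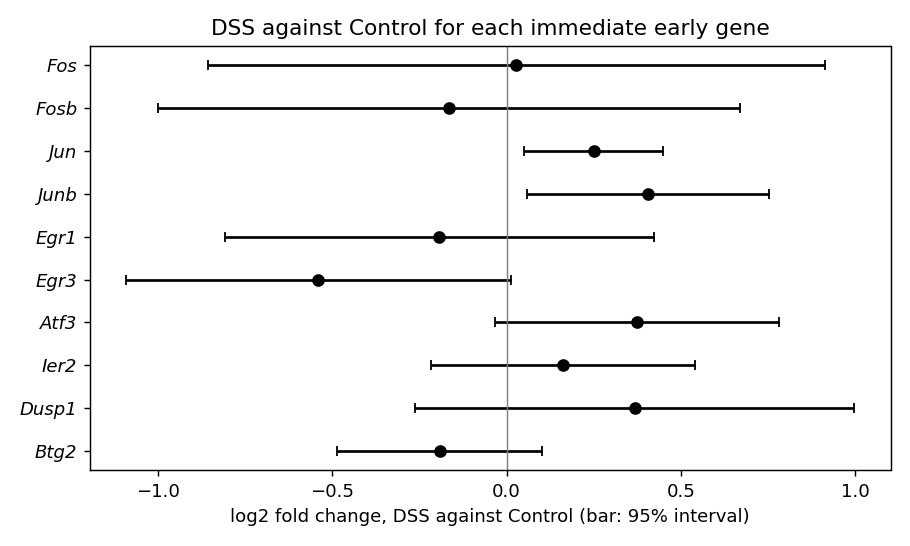
Log2 fold change of each gene, DSS against Control (horizontal axis), as a point with its 95% interval from edgeR's quasi-likelihood fit; the grey line marks no difference. The intervals of Jun and Junb lie above 0 before adjustment for the number of genes tested, those of the other 8 include 0, and those of Fos and Fosb are the widest.

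Per kilobase of exon, the order of mean levels over the 12 mice was Junb (15 CPM per kb), Btg2 (12.3), Jun (9.31), Dusp1 (8.12), Ier2 (5.10), Fos (4.95), Egr1 (4.29), Atf3 (1.98), Egr3 (0.226) and Fosb (0.212), all in CPM per kb. Junb and Btg2, Jun and Dusp1, Ier2 and Fos, Fos and Egr1, and Egr3 and Fosb were neighbours whose mean difference was smaller than its SD over the libraries. Egr1 exceeded Atf3, and Atf3 exceeded Egr3, in 12 of 12 libraries. The most abundant genes of the set were thus an AP-1 subunit and a growth arrest gene, and the scarce ones were Egr3 and Fosb.

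The mice of a group differed from each other more in these genes than in most. The SD of log2 CPM within groups had a median of 0.36 over the 10 genes, against 0.22 over all tested genes. Fos had an SD of 0.92, above that of 96.5% of tested genes, and spanned 6.50-fold between its lowest and highest mouse. Fosb (SD 0.68), Dusp1 (0.62) and Egr1 (0.59) followed, at the 92.7th, 90.4th and 89.3rd percentiles of the within-group SD of log2 CPM. Jun was the steadiest, with an SD of 0.16 and a span of 1.51-fold, at the 30.7th percentile. The spread of Fos was similar in the groups, with an SD of log2 CPM of 0.90 in controls and 0.94 with DSS.

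The same mice were high or low for most of the genes. DSS 3 was among the 4 highest of the 12 libraries for 10 of 10 genes, Control 1 for 8, DSS 5 for 7 and DSS 6 for 6. Control 4 was among the 4 lowest for 9 genes, DSS 1 for 8, Control 5 for 7 and DSS 2 for 6. High and low mice thus occurred in both groups.

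Correlations between the genes were computed over the 12 libraries after the mean of each group was removed. All 45 pairs had a positive Pearson r, from 0.10 to 0.96 with a median of 0.65, and 19 pairs had a Benjamini-Hochberg adjusted permutation p under 0.05 over the 45 (17 pairs by Spearman's rho). The values share each library's scaling. The tightest pair was Fos and Egr1, with r = 0.96 (permutation p = 3e-05, adjusted p = 0.00135) and rho = 0.85 (permutation p = 0.00137, adjusted p = 0.0213). It was 0.93 without the 2 libraries farthest from the median of Fos, DSS 1 and Control 4, and stayed between 0.95 and 0.98 when any single library was left out. Within controls r was 0.99 and within DSS mice 0.94. Fos and Dusp1 followed with r = 0.92 (permutation p = 0.00038, adjusted p = 0.00855) and rho = 0.85 (permutation p = 0.00187, adjusted p = 0.0213), and r = 0.88 without the same 2 libraries.

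**Figure D3:**
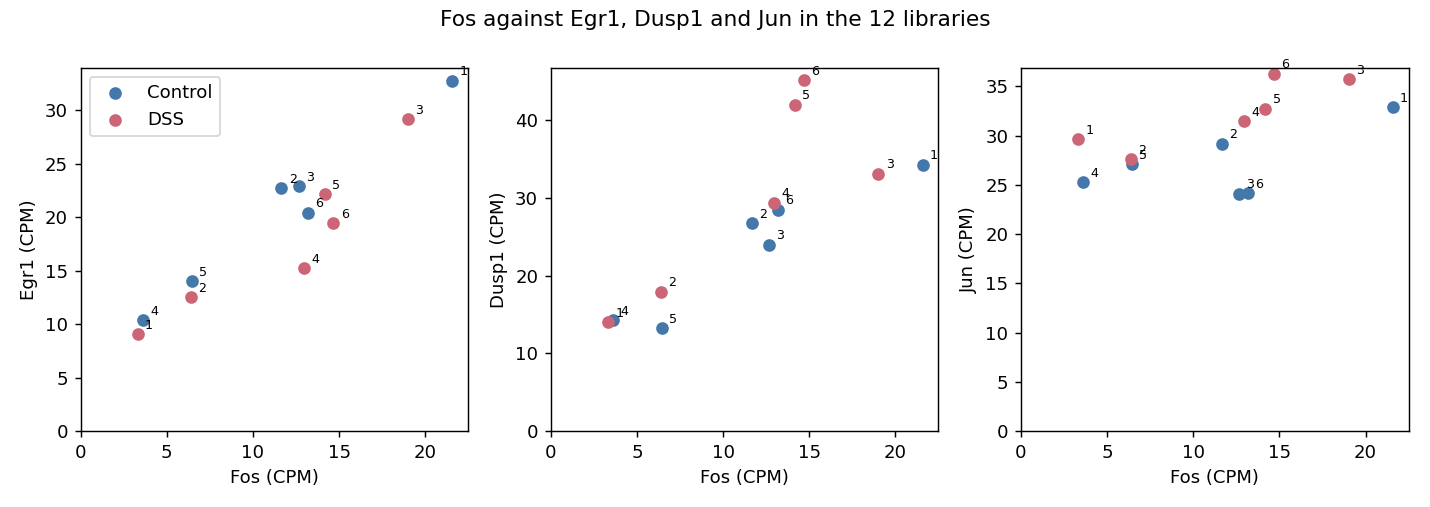
Egr1, Dusp1 and Jun (vertical axes) against Fos (horizontal axis), all in counts-per-million, 1 point per mouse with its replicate number, coloured by group. Egr1 and Dusp1 rise with Fos in both groups (r = 0.96 and 0.92), and Jun varies over 1.51-fold only.

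Other partners were looser. Fos correlated with Junb at r = 0.77, with Btg2 at 0.75 and with Ier2 at 0.75 (permutation, adjusted p = 0.0317 each), with Jun at 0.60 (permutation, adjusted p = 0.0765) and with Egr3 at 0.40 (permutation, adjusted p = 0.267). Egr1 and Btg2 each passed in 7 of their 9 pairs, Fos in 5, and Egr3 in 0, where r ran from 0.10 to 0.52. The number of passing pairs rested on a few mice: it was 3 without DSS 3, 6 without Control 4, 8 without DSS 1, 9 without Control 1, 11 without DSS 5 and 12 without Control 5. The signs did not: at least 44 of 45 pairs stayed positive when any single library was left out. Within controls alone 42 of 45 pairs were positive (median r 0.67) and within DSS mice alone 45 of 45 (median r 0.74), with 0 pairs passing in either group of 6 by exact permutation tests. With 6 mice the smallest exact p is 0.00139, which a lone pair could not carry under 0.05 after adjustment over 45, though several such pairs could. The count of 0 therefore says little.

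**Figure D4:**
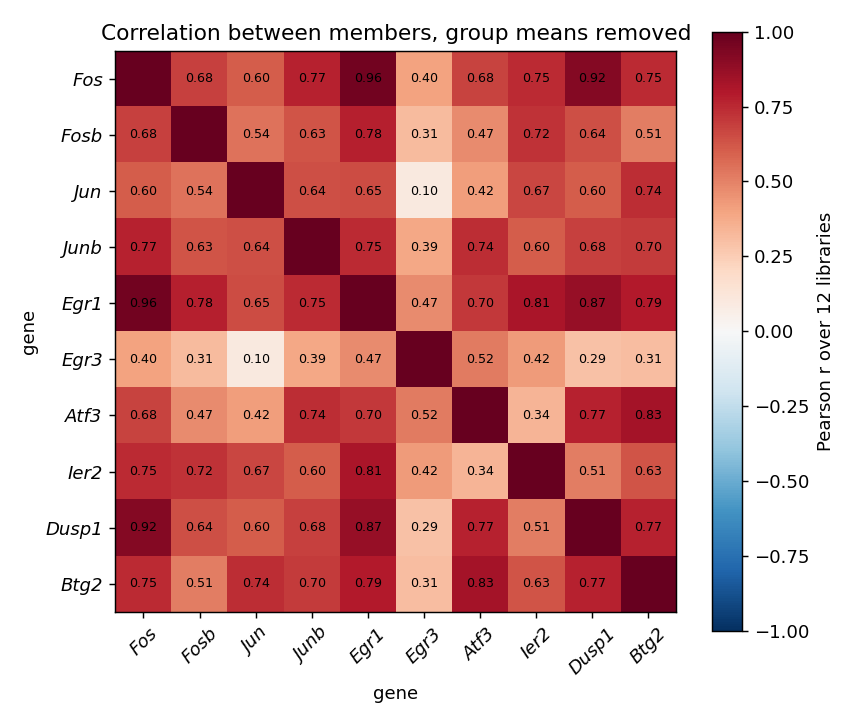
Pearson r between the log2 CPM of each pair of immediate early genes over 12 libraries, group means removed (colour scale from -1 to 1). Every pair is positive, Fos, Egr1 and Dusp1 form the darkest cells, and the row of Egr3 is the palest.

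The Fos to Egr1 ratio in CPM moved over a narrower span than Fos itself, from 0.349 to 0.852, a span of 2.44-fold. The Fos to Dusp1 ratio spanned 2.67-fold. The Fos to Jun ratio spanned 5.87-fold, where Jun itself spanned 1.51-fold only. The ratio of Fos to Egr1 was 0.529 ± 0.117 in controls and 0.629 ± 0.173 with DSS (SD, n = 6 each; two-sided exact permutation p = 0.333, adjusted p = 0.484 over 5 ratios).

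Fos was set against 14 measures of the libraries, again with group means removed. For gene lists the measure was the mean log2 CPM of the tested genes, not their summed level. The lists were heat shock, neutrophils, monocytes, macrophages, fibroblasts, endothelium, mural cells, muscle, neurons, bone and colon. The other measures were the log2 of the total count and of the ribosomal and mitochondrial shares. No measure reached a permutation adjusted p under 0.05 by Pearson's r or Spearman's rho; the lowest were 0.942 and 0.707. Total counts gave r = 0.33 (rho = 0.55), mural cell markers r = 0.40 (rho = 0.53), heat shock genes r = -0.11 (rho = -0.04) and neutrophil markers r = -0.11 (rho = -0.13). Muscle markers gave r = -0.30 and the ribosomal share r = -0.17; without DSS 1 and Control 4 these were -0.61 and -0.57, and neuronal markers moved from r = 0.00 to -0.67. With 12 mice, such values do not show that Fos was unrelated to them.

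Genes elsewhere in the table were ranked by their correlation with the mean standardized level of the 10 genes over the 12 libraries, group means removed. The 10 genes themselves, mitochondrial genes, and predicted or accession-style names were left out. Across the remaining 12914 genes whose log2 CPM averaged 1 or more, the median r was 0.01 and 6.15% had r above 0.5. The 8 most alike were Zfp740 (r = 0.90), Klhl42 (0.89), Zfp747 (0.87), Rhob (0.86), Cyr61 (0.86), Rhobtb1 (0.86), Arid5a (0.85) and Ing3 (0.84). A high r does not mean a wide span: Zfp740 ran from 63.5 to 78.8 CPM and Klhl42 from 28.9 to 38.5 CPM. Rhob, a small GTPase, and Cyr61, a secreted matrix protein, are immediate early genes as well. Cyr61 spanned 23.2 to 116 CPM, and with DSS its log2 fold change was -0.77 (SE 0.27, edgeR adjusted p = 0.121). Of the 8, Arid5a, an RNA-binding protein that stabilizes inflammatory transcripts, rose with DSS (log2 fold change 0.68, SE 0.12, edgeR adjusted p = 0.00407).

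The wider pathway was described with 97 related genes, of which 94 were tested: 5 rose and 0 fell (edgeR), 27 had an unadjusted p under 0.05, and the median log2 fold change was 0.06, against -0.02 over all tested genes. The 5 that rose were Batf3, Nfkbiz, Dusp6, Rps6ka1 and Hspa1b. The 5 are 5.32% of the 94, near the 4.94% of all tested genes. The count was 2 without DSS 4 or without DSS 6, 3 without Control 3, Control 5 or DSS 3, and 14 without DSS 2. Markers of neutrophils and monocytes moved with the groups: 12 of 12 neutrophil markers rose (summed 69.1 to 202 CPM in controls, 263 to 1408 CPM with DSS), as did 6 of 6 monocyte markers (68.3 to 83.0 and 109 to 250 CPM). Their part in the values of these 5 genes, or in those of Jun and Junb, was not tested.

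Among 12 further AP-1 and ATF family genes tested, Batf3 rose and 11 were not called. Batf3, a factor of dendritic cells, had a mean of 0.985 ± 0.318 CPM in controls and 1.77 ± 0.391 CPM with DSS (SD, n = 6 each), a log2 fold change of 0.88 (SE 0.24, edgeR adjusted p = 0.0499), just under the threshold. The call was lost in 13 of 20 alternatives, among them leaving out any single library other than Control 2 or DSS 2. Its relatives Batf (log2 fold change 0.59, edgeR adjusted p = 0.0906) and Batf2 (0.72, edgeR adjusted p = 0.0871) and the broadly expressed Atf7 (0.20, edgeR adjusted p = 0.128) did not pass. Jund and Fosl2, which complete the Jun and Fos families, had log2 fold changes of 0.05 each, and Fosl1 was too low to test, at 0 to 4 counts per library.

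Of 32 other immediate early genes tested, Nfkbiz rose and 31 were not called. Nfkbiz, which encodes an inducible nuclear cofactor of NF-kB, ran from 9.35 to 12.5 CPM in controls and from 13.9 to 21.8 CPM with DSS, so that every DSS mouse was above every control (log2 fold change 0.63, SE 0.11, edgeR adjusted p = 0.00442). Trib1, a pseudokinase, had a log2 fold change of 0.49 (edgeR adjusted p = 0.0565), and Ier5 one of -0.25 (edgeR adjusted p = 0.108). For Ctgf, a matrix-associated protein and a relative of Cyr61, all 6 DSS mice (78.2 to 118 CPM) were below all 6 controls (121 to 242 CPM), at a log2 fold change of -0.49 (SE 0.16, edgeR adjusted p = 0.109). With a library left out, the Ctgf estimate ran from -0.53 (without Control 6) to -0.29 (without Control 1). The orphan nuclear receptor gene Nr4a1 varied more within groups than Fos did, with an SD of log2 CPM of 1.13, and its log2 fold change was -0.05 (SE 0.51).

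In the feedback families, 1 of 14 tested DUSP and BTG relatives rose. Dusp6, the phosphatase of ERK, went from 31.5 ± 2.29 CPM to 38.3 ± 3.57 CPM (SD, n = 6 each), and 5 of 6 DSS mice exceeded every control (log2 fold change 0.28, SE 0.07, edgeR adjusted p = 0.0413). The call was lost in 9 of 20 alternatives, among them without Control 1, 3, 4 or 5 and without DSS 3, 4 or 6 (edgeR adjusted p up to 0.103). Dusp4, another MAP kinase phosphatase, had a log2 fold change of -0.76 (edgeR adjusted p = 0.0988). Of the EGR corepressors, Nab1 (0.05) and Nab2 (0.16) had log2 fold changes that were not called.

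Of 23 upstream kinases and bound factors, Rps6ka1 rose and 22 were not called. Rps6ka1, the kinase RSK1 downstream of ERK, ran from 17.2 to 20.4 CPM in controls and from 22.2 to 32.7 CPM with DSS, with no overlap (log2 fold change 0.52, SE 0.09, edgeR adjusted p = 0.00417). The coactivator gene Ep300 had a log2 fold change of 0.29 (edgeR adjusted p = 0.0544).

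Of 11 heat shock genes, which respond to stress through a separate factor, Hspa1b rose. It went from 17.3 ± 2.44 CPM to 28.7 ± 7.35 CPM (SD, n = 6 each; log2 fold change 0.73, SE 0.16, edgeR adjusted p = 0.0194), and did not pass without DSS 4 (edgeR adjusted p = 0.0514) or without DSS 6 (0.0511). Its near-identical neighbour Hspa1a had a log2 fold change of 1.02 (SE 0.35, edgeR adjusted p = 0.114), and reads can be split between the pair. Hspb1, a small heat shock protein, had a log2 fold change of 0.32 (edgeR adjusted p = 0.0629).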

How the data were processed

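RNA-seq libraries (TruSeq stranded total RNA, per the labels' protocols) of meninges from 6 DSS and 6 Control mice were analysed from the raw counts per gene symbol that the authors deposited. Per the submitters' processing notes, CASAVA, FastQC, Trim Galore, HISAT2, featureCounts and mm10 were used; no versions and no strand setting were stated. The authors also deposited a normalized table of signal values, which equal the counts divided by a median-of-ratios size factor when computed here; it served as an alternative only.

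In R 4.3.3, counts were filtered with filterByExpr (minimum 10, total 15) and scaled by TMM, and DSS was tested against Control with edgeR 4.0.16 (quasi-likelihood), Benjamini-Hochberg adjusted over 18593 genes, threshold 0.05. Intervals are 95%. Alternatives used DESeq2 1.42.0 and limma 3.58.1 (pseudocount 1 on the normalized values), other filters, a replicate block and each library left out. CPM came from TMM-scaled totals; correlations used log2 CPM (prior count 2) and 100000 permutations within groups. Exon lengths and gene positions are from GENCODE M21. The tests were checked on simulated counts. Libraries of one group differed beyond sampling noise (lowest chi-square 19.3 per degree of freedom over 30 pairs). The labels number 1 library per mouse; p-values measure the spread between these mice.

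All 10 members, up to 4 genes of each related list by smallest p, list genes that passed, and the 8 genes most alike in pattern were named. Jund, Fosl1, Fosl2, Nr4a1 and Tubb3 were named after their values were seen. Members and lists were chosen with earlier results of these data known. Neither chromosome position nor promoter letters are given for Egr1.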

Additional observations from a re-analysis of the deposited data

Results flagged for a closer look

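The lowest and highest mouse of each gene in each group, 20 gene and group combinations, were set against Dixon's 95% critical value for 6 samples, which chance exceeds in about 1 in 20 groups. Fosb in Control 1 stood apart, at 3.10 CPM with the nearest control at 1.34 CPM (ratio of gap to range 0.752). Ier2 in DSS 3 stood apart, at 11.3 CPM with the nearest DSS mouse at 8.30 CPM (ratio 0.642). Control 1 and DSS 3 are also the mice that were highest for most of the other immediate early genes.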

How the results depend on the processing

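The number of immediate early genes called was 0 under all 21 alternatives. The sign of the fold change held under every alternative for 7 of the 10; for Fos (-0.16 to 0.33 with a library left out) it turned without Control 4 (-0.15), Control 5 (-0.10), DSS 3 (-0.16), DSS 5 (-0.03) or DSS 6 (-0.04), for Fosb (from -0.34) without Control 1 (0.30) and for Egr1 (from -0.39) without Control 1 (0.0015), all on the log2 scale. The 5 related genes called became 11 with DESeq2's Wald test, 10 with limma-voom quality weights, 3 with no filter on low counts, 11 at an adjusted p under 0.1, 11 without both Control 2 and DSS 2, and 2 to 14 when a single library was left out; the cause was not tested. Nfkbiz and Rps6ka1 passed under all 20 alternatives, while Batf3 was lost in 13 of 20, Dusp6 in 9 and Hspa1b in 3. With the replicate number as a block, 2 related genes and 708 of all genes (919 without the block) were called. Same-numbered libraries correlated at -0.19 to 0.15 after group means were removed. These values show no pairing by number, but so few pairs cannot exclude it. Over all genes, the count was 1551 with DESeq2, 1641 at an adjusted p under 0.1, and 538 to 1379 when a library was left out. The 19 correlated pairs became 8 without both Control 2 and DSS 2 and 3 to 23 when a library was left out; these and the DESeq2 scaling (18) were chosen after seeing the data. Analysis by group gave 0 pairs in controls alone and 0 in DSS mice alone. The lowest adjusted p by exact permutation was 0.188 in controls and 0.109 with DSS. The smallest exact p of 0.00139 puts a lone pair out of reach of the threshold, though several such pairs could pass. The analysis by group therefore says little about stability. No scaling moved the median of all genes by over 0.1 (log2). Depth limits Fosb (10 to 144 counts per library) and Egr3 (12 to 54) most.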
